A study of Mus musculus with 4 samples.

Results

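The genes described here encode glutamate receptors, vesicular and plasma membrane glutamate transporters, and the scaffolds and kinase subunits of the postsynaptic density, the protein mesh under excitatory synapses. They came from a list of 35 gene symbols: 22 receptor subunits, 4 transporters and 9 scaffold and kinase genes, so the list is wider than receptors and vesicular transporters alone. A gene was found through probe sets annotated to it and no other gene, and where it had several the one with the highest mean over the 4 arrays stood for it. In this way 34 of the 35 genes were found, among 19938 genes in all. Grin1, which encodes the obligatory NMDA receptor subunit, was not analysed here. Genes with a mean under the 40th percentile of the probe sets, an intensity of 167 (log2 7.38), were not tested, and none of the 34 was among them. Slc17a8 lay just above it, with a mean log2 intensity of 7.40.

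Ventral midbrain of male mice was compared between 2 arrays of wild-type mice (WT) and 2 of Rev-erba knock-out mice (RKO), both on the C57BL/6J background and 10 to 15 weeks old. Nr1d1 encodes REV-ERBα, a repressor of the nuclear receptor family and part of the circadian clock. Both groups had been entrained for more than 10 days to cycles with 12 h of light and then kept for 2 days in darkness before tissue was taken on the next day. The labels call the replicates biological, but neither the number of mice per array, the hour of collection nor the deleted part of the gene is given in the sources used here, and the labels name no tissue-specific deletion.

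Glutamate is the main excitatory transmitter of the brain. It is loaded into synaptic vesicles by the vesicular transporters, acts on ion channels of the AMPA, NMDA and kainate classes and on G protein-coupled metabotropic receptors, and is cleared by plasma membrane transporters. In the ventral midbrain, glutamatergic input from cortex, subthalamic nucleus, pedunculopontine nucleus and hypothalamus drives the firing of dopamine neurons, and part of the local neurons release glutamate themselves.

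The arrays carried the marks of the labelled tissue and genotype. Nr1d1 had intensities of 2897 and 3099 in WT and 1259 and 1229.7 in RKO (log2 difference -1.27, limma adjusted p = 2.44e-06), and the dopamine neuron markers Th and Slc6a3 were bright, with Th at 2168 and 2248 in WT and 3620.0 and 3664 in RKO. Whether that probe set lies in the deleted part is not known here. RKO replicate 1 stood apart in level among tested genes: its median over the 13587 was 539.8, against 558.6 to 558.7 in the other arrays, and it was the lowest of the 4 arrays for 43.6% of tested genes. Over all probe sets, dim ones included, its median was instead the highest, 240.1 against 235.7 to 236.8, so the array was not lower throughout. The 2 groups shared replicate numbers, and 218 tested genes were called at a Benjamini-Hochberg adjusted p under 0.05 in limma, 1.6% of all.

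Of the 34 genes 1 fell in RKO, Slc17a7, the vesicular glutamate transporter VGLUT1; 0 rose and 33 did not pass. Over all tested genes 0.964% were called lower and 0.64% higher. Below the level of the call the genes leaned towards lower values in RKO. Of the 34, 28 lay below 0, which is 82.4% against 56.8% of all tested genes, and the median log2 difference was -0.06 against -0.01. An unadjusted p under 0.05 was reached by 11 genes, all lower in RKO, where 6.9% of all tested genes reached it in that direction and 5.9% in the other. The groups did not overlap for 17 genes (41.8% of all tested genes): both RKO arrays lay below both WT arrays for 16 (24.6%) and above them for 1, Grik3 (17.2%). They overlapped for the other 17. The comparison with all tested genes was not matched for brightness, and brighter genes leaned lower in general. With the filter at the 60th percentile 33 of the 34 were tested and 28 lay below 0, against 63.9% of all genes tested there. The median was then -0.06 against -0.02. In that fit 13 genes were lower at an unadjusted p under 0.05 in limma, against 9.02% of all.

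RKO replicate 1 was the lowest of the 4 arrays for 24 of the 34 genes and for all 11 with an unadjusted p under 0.05. Among all tested genes that were lower in RKO at that p, it was the lowest for 76.1%. Without this array 25 of the 34 genes still lay below 0, against 47.1% of all tested genes, the median was -0.06 against 0.01, 6 genes were lower at an unadjusted p under 0.05 (3.65% of all tested genes) and 1, Grik3, was higher. Also without it Grin2a, Grm3, Grm8 and Dlg4 lay above 0 and Slc17a8 below. With each array centred on its median over tested genes, 23 of the 34 lay below 0, against 42.8% of all tested genes, and the median was -0.03 against 0.01. These counts describe a list that was chosen with earlier results of these data known, and they were not tested as a set. In whole tissue, fewer cells that express a gene and less RNA per cell cannot be told apart.

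**Figure D1:**
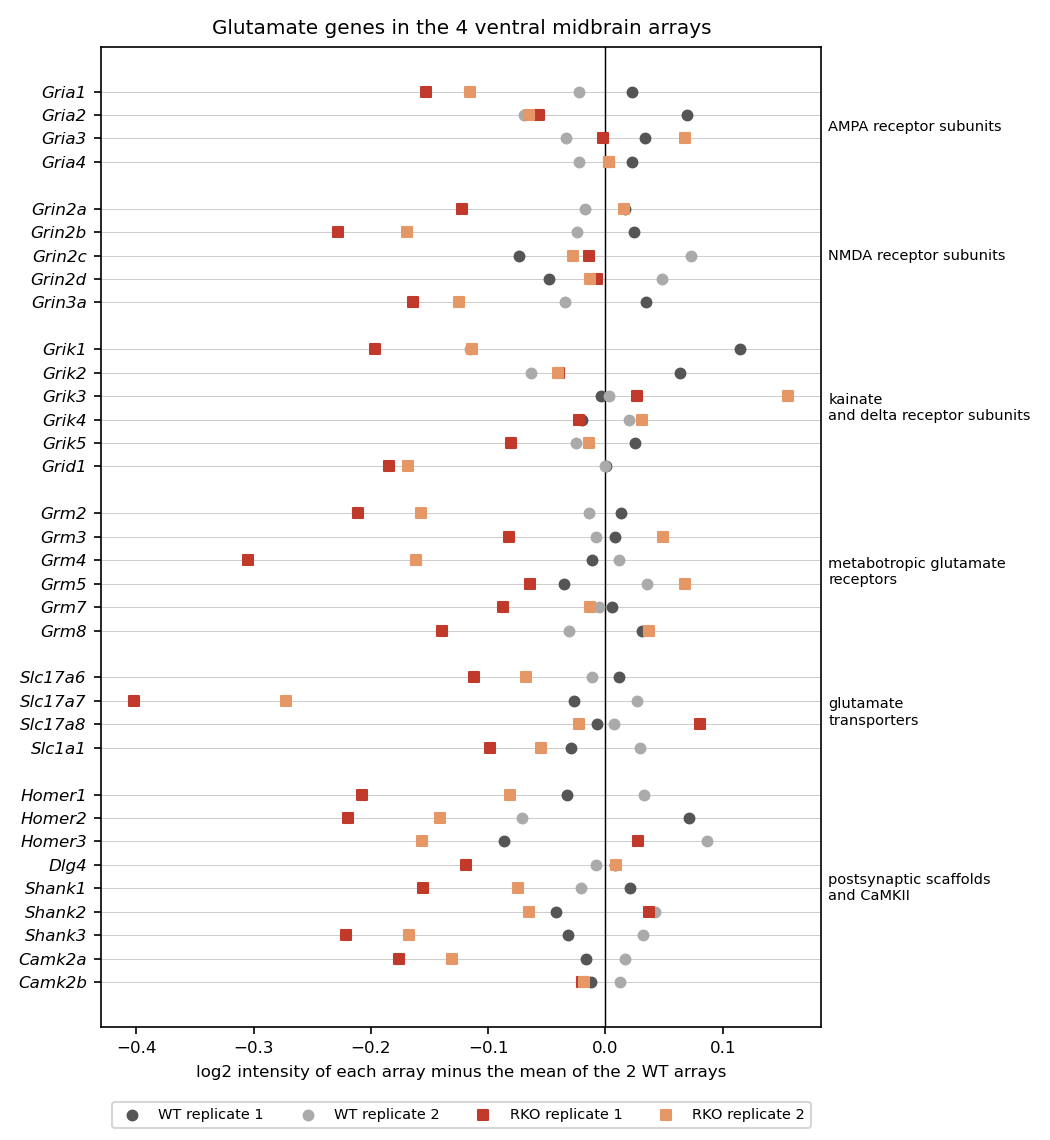
Log2 intensity of each array minus the mean of the 2 WT arrays (x axis) for the 34 genes (rows, grouped by role); circles are WT arrays and squares RKO arrays. For Slc17a7 both RKO squares lie well to the left of both WT circles, and RKO replicate 1 (dark red) is the lowest array for 24 genes.

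The transporters held the largest difference of the list. Slc17a7 loads glutamate into vesicles at terminals of cortical, hippocampal and some brainstem neurons, while Slc17a6 (VGLUT2) does so in most subcortical glutamate neurons and Slc17a8 (VGLUT3) in scattered neurons that often use another transmitter as well. Slc17a7 had intensities of 1185 and 1230.0 in WT and 914 and 999 in RKO. Both RKO values lay below both WT values. The difference was 1.26-fold (log2 -0.34, SE 0.0623, 95% interval -0.47 to -0.20, limma adjusted p = 0.0218). The call was not robust: the adjusted p rose to 0.223 without RKO replicate 1, to 0.0529 without WT replicate 2, to 0.205 with no filter on dim probe sets, to 0.0757 when each array was centred on its median over tested genes and to 0.0502 after quantile normalization. Over 13 alternatives, which leave out the crossed replicate block, the log2 difference ran from -0.40 to -0.27 and the adjusted p from 1.75e-05 to 0.223.

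Slc17a6 had intensities of 3585 and 3528 in WT and 3291 and 3392 in RKO. Its groups did not overlap either, but the log2 difference of -0.09 (SE 0.0555, 95% interval -0.21 to 0.03, limma adjusted p = 0.564) did not pass. Slc17a8 stood at 166 and 167 in WT; its RKO arrays gave 176 and 164, so the groups overlapped and it was barely above the filter. Slc1a1, which encodes the neuronal glutamate and cysteine transporter EAAC1 of the plasma membrane, had 2553 and 2660.0 in WT and 2433 and 2508 in RKO. Its log2 difference of -0.08 (95% interval -0.20 to 0.05) did not pass.

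**Figure D2:**
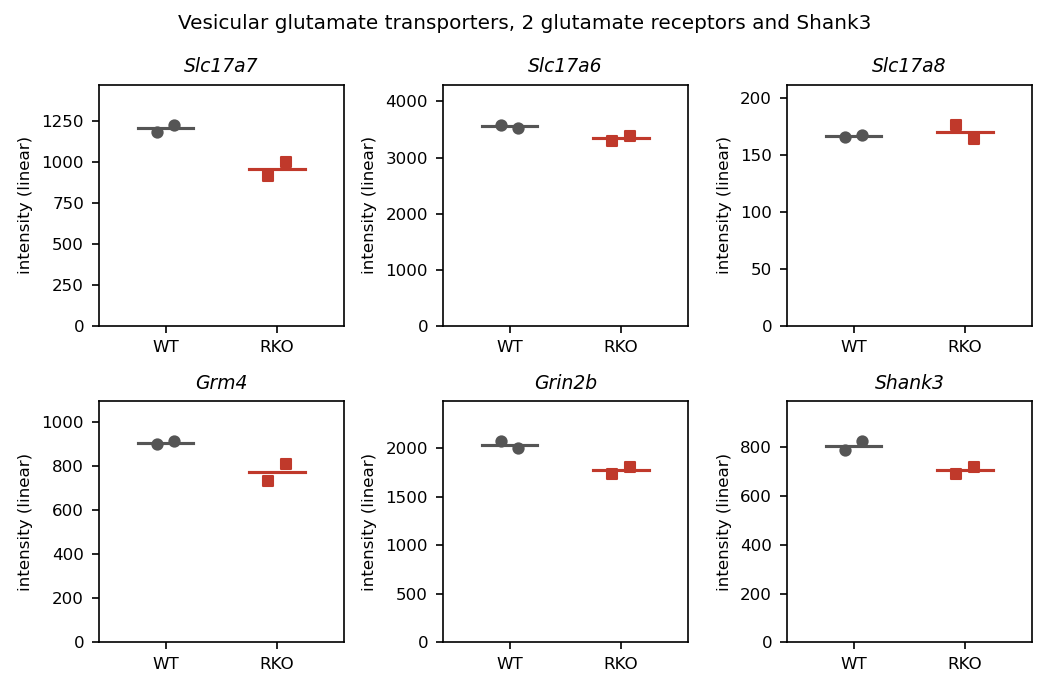
Normalized intensity on a linear scale from 0 (y axis) in each array for the 3 vesicular transporters, Grm4, Grin2b and Shank3; circles are the 2 WT arrays, squares the 2 RKO arrays and lines the group means. Slc17a7 went from 1185 and 1230.0 in WT to 914 and 999 in RKO, and of the 6 genes it alone passed the test.

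REV-ERBα binds DNA at ROR response elements, built on the half-site AGGTCA, and the core letters TAGGTCA and TGGGTCA were looked for, as was the E-box CACGTG of the clock activators, on both strands. Every TAGGTCA also holds AGGTCA. The window reached from 250 bases before to 50 after each annotated start, in RefSeq sequences of GRCm38.p6, which covered 23 of the 35 listed genes with 32 starts. AGGTCA was found at 5 of these genes (Grin2c, Grm8, Homer1, Homer3 and Dlg4), against 18.1% of all 27025 genes in the table. TAGGTCA was found at 0 of the 23 (2.97% of all genes) and TGGGTCA at 2, Slc1a1 and Homer2 (4.57%). CACGTG was found at 1, Grin1 (8.09%). The window of Slc17a7 (chr7:45163671-45163970, plus strand) is shown because it is the 1 gene of the list that fell, and it holds none of these letters. That of Slc1a1 (chr19:28834885-28835184, plus strand) and that of the downstream start of Homer2 (chr7:81692916-81693215, minus strand) are shown because they hold TGGGTCA, beginning 189 bases upstream of the start of Slc1a1 and 43 bases downstream of that of Homer2. Cnih3 (chr1:181352378-181352677, plus strand), an AMPA receptor auxiliary subunit described below, fell as well and holds an E-box that begins 199 bases upstream. Each runs 5′ to 3′ on the strand of its gene, with the motif in capitals. A match is a description of letters and not of binding.
Slc17a7: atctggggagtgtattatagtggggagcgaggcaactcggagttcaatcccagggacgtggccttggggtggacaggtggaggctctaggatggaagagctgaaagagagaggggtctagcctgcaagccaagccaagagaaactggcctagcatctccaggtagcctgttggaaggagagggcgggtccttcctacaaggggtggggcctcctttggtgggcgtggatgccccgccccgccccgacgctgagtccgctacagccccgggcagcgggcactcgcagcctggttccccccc
Slc1a1: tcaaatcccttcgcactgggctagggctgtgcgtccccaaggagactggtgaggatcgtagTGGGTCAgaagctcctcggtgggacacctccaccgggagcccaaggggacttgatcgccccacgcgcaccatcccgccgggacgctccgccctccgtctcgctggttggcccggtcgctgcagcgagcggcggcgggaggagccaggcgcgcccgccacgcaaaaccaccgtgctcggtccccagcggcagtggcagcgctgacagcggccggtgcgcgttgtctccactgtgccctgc
Homer2: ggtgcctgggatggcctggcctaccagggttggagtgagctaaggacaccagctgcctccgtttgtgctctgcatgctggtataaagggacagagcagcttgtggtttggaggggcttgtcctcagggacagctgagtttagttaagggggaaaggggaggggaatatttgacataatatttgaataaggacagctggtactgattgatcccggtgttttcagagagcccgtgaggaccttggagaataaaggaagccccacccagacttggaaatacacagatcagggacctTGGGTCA
Cnih3: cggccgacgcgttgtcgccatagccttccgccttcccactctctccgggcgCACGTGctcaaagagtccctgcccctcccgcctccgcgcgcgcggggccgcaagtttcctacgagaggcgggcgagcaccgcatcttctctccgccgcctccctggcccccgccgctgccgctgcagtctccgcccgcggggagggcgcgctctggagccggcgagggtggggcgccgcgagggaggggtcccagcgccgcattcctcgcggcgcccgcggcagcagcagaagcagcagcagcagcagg

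Of the 4 AMPA receptor subunits, which form the channels of fast excitatory transmission, 0 passed and the median log2 difference was -0.03. Gria1 had intensities of 2801 and 2716 in WT and 2480.3 and 2546 in RKO, without overlap (log2 -0.13, SE 0.0559, unadjusted p = 0.0355, limma adjusted p = 0.336). Gria2, whose edited transcript makes the channel impermeable to calcium, had 2613 and 2374 in WT and 2394 and 2379.7 in RKO, and here WT replicate 1 alone was high. Gria3 (log2 0.03) and Gria4 (0.00) had overlapping groups. The 95% intervals of these 3 ran from -0.20 to 0.16.

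Among the 5 NMDA receptor subunits measured, 0 passed, all lay below 0 and the median was -0.05. The signs of Grin2c and Grin2d turned under median centring over tested genes, after quantile normalization and without WT replicate 2, and that of Grin2a without RKO replicate 1. NMDA receptors admit calcium when glutamate binds while the membrane is depolarised, and the Grin2 subunits set their kinetics. Grin2b had intensities of 2073 and 2004 in WT and 1740.1 and 1812 in RKO, without overlap (log2 -0.20, SE 0.0569, 95% interval -0.32 to -0.07, unadjusted p = 0.00523, limma adjusted p = 0.139). Grin2a, its partner in the adult forebrain, had 1126 and 1100.04 in WT and 1023 and 1125 in RKO, where RKO replicate 1 alone was low. Grin3a, a subunit that lowers calcium flow, had 1130.1 and 1078 in WT and 985 and 1012 in RKO, again without overlap (log2 -0.14, unadjusted p = 0.0286). Grin2c (-0.02) and Grin2d (-0.01) had overlapping groups.

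Of the 5 kainate receptor subunits and the delta receptor gene Grid1, 0 passed, and the median of the 6 was -0.04. Grid1, which encodes a synaptic organiser that binds cerebellin, had intensities of 1341 and 1339.7 in WT and 1179 and 1193 in RKO. Its replicates lay closer together than the groups did (log2 -0.18, SE 0.0546, unadjusted p = 0.0082, limma adjusted p = 0.175). Grik3 had 919 and 923 in WT and 939 and 1027 in RKO, and was the 1 gene of the 34 with both RKO arrays above both WT arrays (log2 0.09, 95% interval -0.04 to 0.23). Grik1 had 483 and 412 in WT and 389 and 412 in RKO, and the size of its difference (log2 -0.16) rested on WT replicate 1. Grik2, Grik4 and Grik5 lay between -0.05 and 0.00, with overlapping groups.

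Of the 6 metabotropic receptors 0 passed, with a median of -0.05. Grm4, a presynaptic receptor that damps release of glutamate and GABA, was the lowest of them: it had intensities of 899.7 and 914 in WT and 734 and 811 in RKO. Its groups did not overlap (log2 -0.23, SE 0.0628, 95% interval -0.37 to -0.09, unadjusted p = 0.0036, limma adjusted p = 0.115). It passed under some alternatives, for example with the filter at the 60th percentile (limma adjusted p = 0.0308), but its adjusted p ran from 0.0103 to 0.594 over the same 13 alternatives and was highest without RKO replicate 1. Grm2, another presynaptic receptor that inhibits release, had 583 and 572 in WT and 499 and 518 in RKO (log2 -0.18, SE 0.0560, unadjusted p = 0.00751, limma adjusted p = 0.167). Grm3 of astrocytes and neurons (-0.02), the postsynaptic Grm5 (0.00) and Grm8 (-0.05) had overlapping groups. Grm7, a receptor of the active zone, stood at -0.05 with both RKO arrays just below both WT arrays.

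The 9 scaffold and kinase genes all lay below 0, with a median of -0.12, and 0 passed. Under at least 1 alternative the signs of Shank2, Camk2b, Homer3 and Dlg4 turned. Shank3, a master scaffold of the postsynaptic density, had intensities of 788 and 824 in WT and 691 and 717 in RKO (log2 -0.19, SE 0.0573, 95% interval -0.32 to -0.07, unadjusted p = 0.00626, limma adjusted p = 0.153). Camk2a, the alpha subunit of the calcium and calmodulin-dependent kinase needed for synaptic potentiation, had 4721 and 4830.3 in WT and 4226 and 4362 in RKO (log2 -0.15, SE 0.0558, unadjusted p = 0.0194). In both genes the groups were apart by more than the replicates. Camk2b, the beta subunit, had 4413 and 4488 in WT and 4389 and 4396 in RKO. Its log2 difference was -0.02, with a 95% interval of -0.14 to 0.10.

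The Homer proteins tie metabotropic receptors to Shank and to calcium stores. Homer2 had intensities of 715 and 648 in WT and 585 and 618 in RKO (log2 -0.18, unadjusted p = 0.0183), and a further probe set of this gene gave -0.09 (unadjusted p = 0.122). Without WT replicate 1 the difference of Homer2 was -0.11. Homer1 had 491 and 514 in WT and 435 and 475 in RKO (log2 -0.14, unadjusted p = 0.0421), which became -0.08 without RKO replicate 1. Homer3 had overlapping groups (-0.06). Shank1 stood at -0.12 without overlap (unadjusted p = 0.0729). The probe sets of Shank2 differed: the one used gave -0.01, another -0.02 and the last 0.16, higher in RKO with an unadjusted p of 0.017 and a limma adjusted p of 0.272 over all probe sets with 1 gene. Dlg4, which encodes PSD-95, had 3449 and 3409.7 in WT and 3159 and 3451 in RKO. RKO replicate 1 alone was low. Over the 33 genes that did not pass, the 95% intervals reached from -0.37 to 0.23 and 23 of them included 0.

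**Figure D3:**
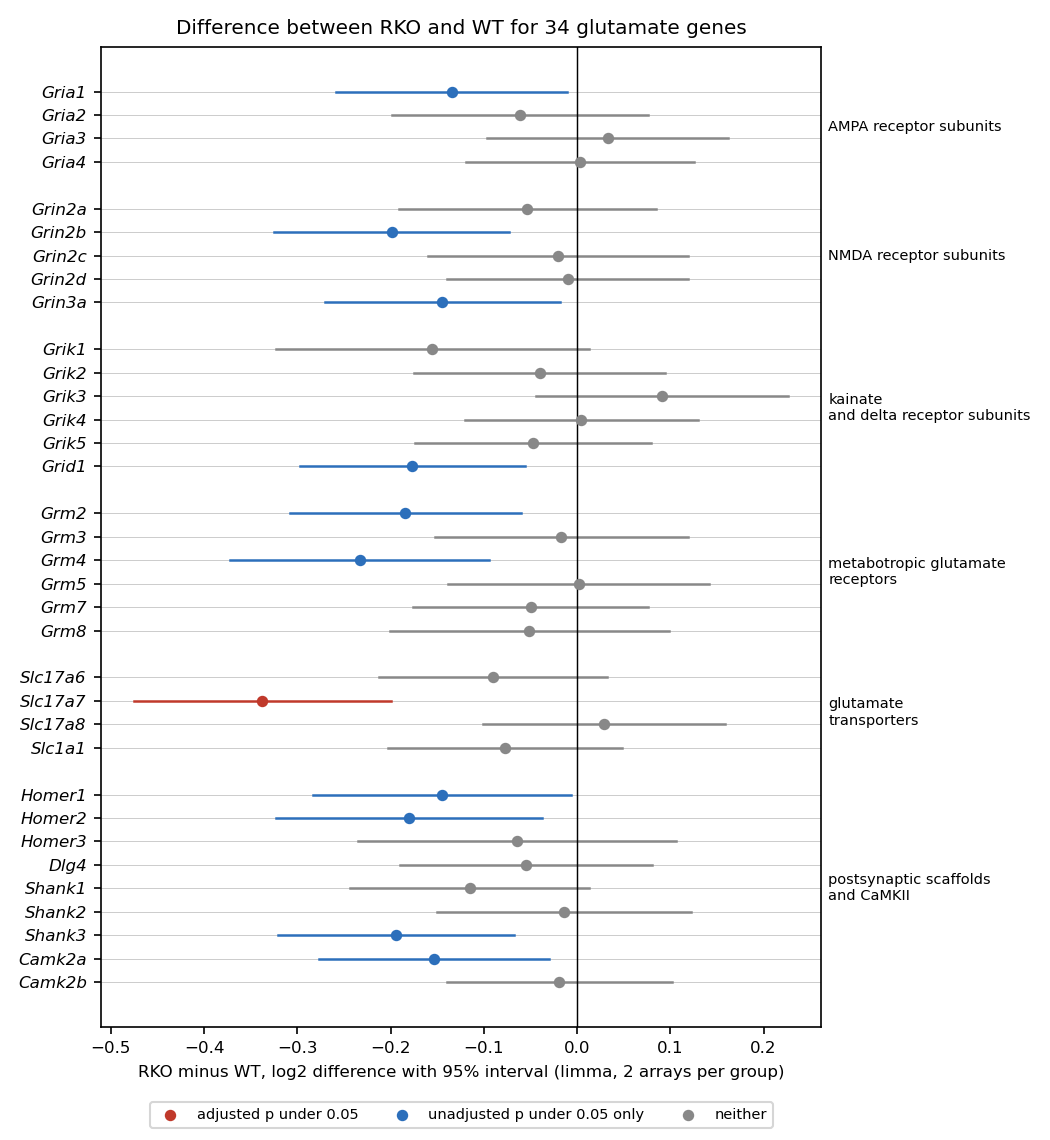
RKO minus WT on the log2 scale (x axis, points) with 95% intervals from limma (lines, 2 arrays per group, not adjusted for the number of genes) for the 34 genes, grouped by role. Slc17a7 (red) passed at an adjusted p under 0.05, 10 genes (blue) had an unadjusted p under 0.05 alone, and the intervals of the 23 others (grey) include 0.

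Pairs of related genes, chosen with their values known, were set against each other within each array as the log2 ratio relative to the mean of the WT arrays. For Slc17a7 over Slc17a6 it stood at -0.04 and 0.04 in WT, against -0.29 and -0.20 in RKO. For Grin2b over Grin2a it stood at 0.01 and -0.01 in WT, against -0.11 and -0.19 in RKO, and for Camk2a over Camk2b at 0.00 and 0.00 in WT, against -0.16 and -0.11 in RKO. For Gria1 over Gria2 it stood at -0.05 and 0.05 in WT, against -0.10 and -0.05 in RKO, where RKO replicate 2 lay just under WT replicate 1. In all 4 pairs both RKO ratios lay below both WT ratios. A two-sided exact permutation test gave p = 0.333 for each of the 4 pairs, the smallest that 2 arrays against 2 allow. The share of all gene pairs that separate in this way was not counted. As the pairs were picked with their values known, neither the separation nor the p supports a difference.

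Further genes of glutamate signalling were tested in the same fit. Of 58 listed, 52 were found and 50 tested: 1 fell, 0 rose and 49 did not pass, with a median log2 difference of -0.03. Among all tested genes 0.964% were called lower and 0.64% higher. Of the 50, 31 lay below 0, where 56.8% of all tested genes did. Grm6 and Grin3b lay below the filter. The gene that fell was Cnih3, a cornichon protein that accompanies AMPA receptors and slows their closing. It had intensities of 862 and 880.0 in WT and 685 and 695 in RKO (log2 -0.34, SE 0.0550, limma adjusted p = 0.0106). Its groups were apart by far more than its replicates, yet the call was lost without RKO replicate 1 (adjusted p = 0.114), without RKO replicate 2 (0.073) and with no filter (0.146).

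Of the 16 auxiliary subunits 10 lay below 0. Beside Cnih3, the lowest p values belonged to Cacng4, a TARP (log2 -0.22, limma adjusted p = 0.12), Cnih2, another cornichon (-0.18, 0.209), and Shisa9, a modulator of AMPA receptors, which lay higher in RKO (0.18, 0.172). Among the 25 genes of the postsynaptic density and of receptor trafficking 0 passed, 19 lay below 0 and the median was -0.03. The lowest p values there were those of the synaptic adhesion genes Lrrtm1 (-0.24, 0.125) and Lrrtm2 (-0.21, 0.177) and of Nptx2, a pentraxin that clusters AMPA receptors (-0.13, 0.54). The groups of Nptx2 overlapped, with RKO replicate 1 alone low, and without that array its difference was -0.01. Of the 9 genes of glutamate uptake and metabolism 7 lay above 0 and 2 below, where 56.8% of all tested genes lay below. Their median was 0.03 and 0 passed. Glud1 alone had an unadjusted p under 0.05 in limma. Glud1, glutamate dehydrogenase, had intensities of 2856 and 3032 in WT and 3302 and 3479 in RKO (0.20, 0.152). The glial transporters Slc1a2 (0.05) and Slc1a3 (-0.06) and glutamine synthetase, Glul (0.02), did not pass, nor did Slc1a6 (0.09) or Slc38a3 (-0.12).

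**Figure D4:**
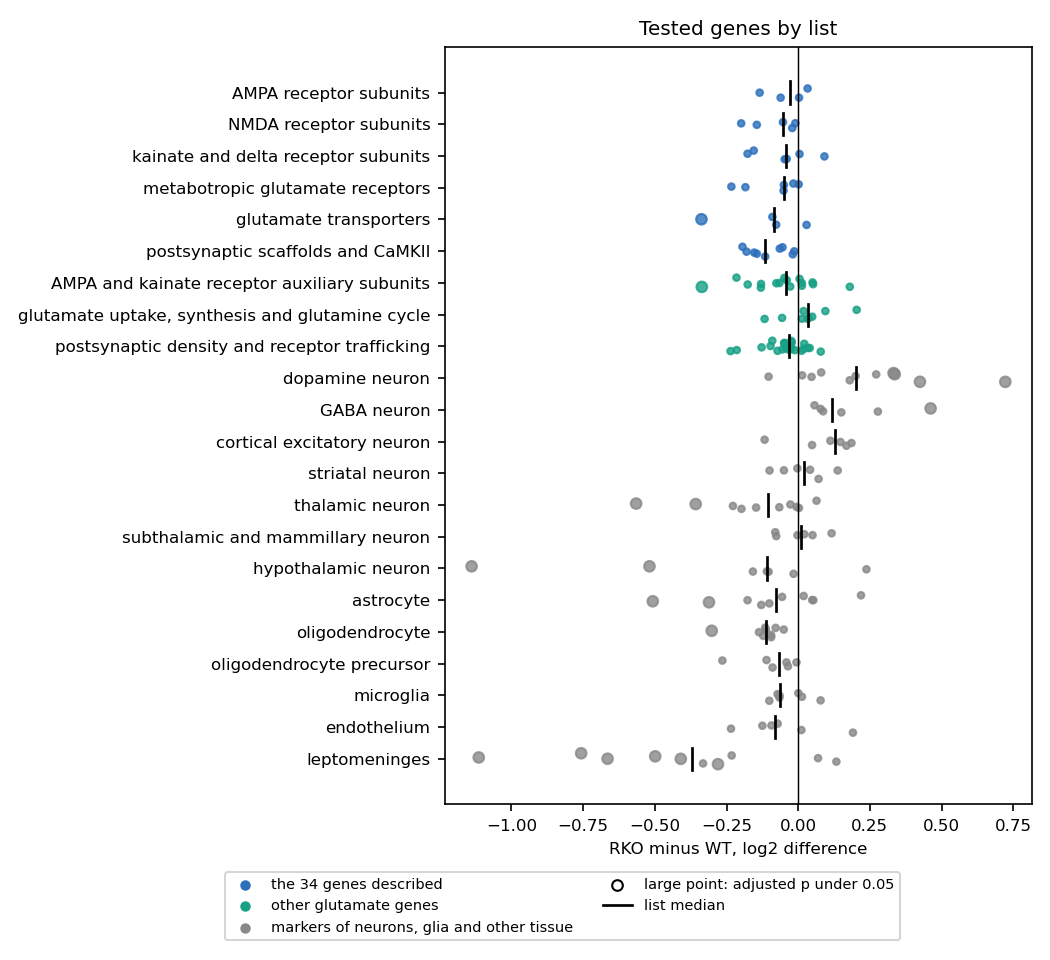
RKO minus WT on the log2 scale (x axis) for each tested gene, by list (rows); large points passed at an adjusted p under 0.05 and black bars are list medians. The lists of the 34 genes (blue) have medians from -0.12 to -0.03, whereas the markers of dopamine neurons (grey) have a median of 0.20 and those of leptomeninges of -0.37.

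Markers of cell types and of neighbouring tissue were set beside these values. Among all tested genes 0.964% were called lower and 0.64% higher, and 56.8% lay below 0. Of 10 thalamic markers, all tested, Prkcd (log2 -0.57, limma adjusted p = 6.67e-04) and Rora (-0.36, 0.0109) fell and 8 lay below 0. Both RKO arrays lay below both WT arrays for 5 of the 10 (24.6% of all tested genes). The groups of the other 5 overlapped, among them the bright Tcf7l2 (log2 0.00). The summed intensity of the 10 ran from 15893 to 16081 in WT, against 13539 to 13940.0 in RKO. Bright genes weigh most in it, and Prkcd alone had a mean of 3493 in WT and 2362 in RKO. Rora is also a factor of the clock. Slc17a7 is expressed in parts of the thalamus as well as in cortex. Of 10 cortical markers 8 were found and 6 tested, 0 passed and 5 lay above 0. The 2 other genes found, Tbr1 and Neurod6, lay below the filter and are named here after their values were seen. Cux2 (log2 -0.12) was the 1 tested gene of this list below 0. The summed intensity of the list, with Tbr1 and Neurod6 counted, ran from 2168 to 2216 in WT, against 2246 to 2346 in RKO. Its genes were dim: Emx2 had a mean of 172 and Fezf2 of 170 in WT, just above the filter of 167. Of 11 leptomeningeal markers 10 were tested and 6 fell (Ogn, Islr, Slc13a4, Aldh1a2, Dcn and Slc22a6). The sum went from 5428 to 5495 in WT to 4228 to 4245 in RKO. Of the 10 tested, 8 lay below 0. The collagen genes Col1a1 (log2 0.13) and Col1a2 (0.07) had both RKO arrays above both WT arrays and were not called. Of 9 hypothalamic markers 7 were tested, Pmch and Hcrt fell and 6 lay below 0. Oxt lay higher in RKO (log2 0.24, not called), with both RKO arrays above both WT arrays. The sum of this list went from 4246 to 4332 in WT to 3669 to 3759 in RKO. Sst, its brightest gene, had a mean of 2256 in WT and 2101 in RKO and was not called. Dopamine neuron markers went the other way, with 4 of 11 called higher (Th, Slc18a2, Ddc and Slc6a3) and 0 lower, and sums of 15750.2 to 16182 in WT and 19177 to 19708 in RKO. Of the other lists, Gfap and Aldh1l1 of 10 astrocyte markers and Opalin of 9 tested oligodendrocyte markers fell, and Gata3 of 6 tested GABA neuron markers rose. All 9 oligodendrocyte markers had both RKO arrays below both WT arrays (24.6% of all tested genes), with a median of -0.11. The astrocyte median was -0.08, with 4 of the 10 above 0, among them Gja1 (0.22, not called). The GABA neuron median was 0.12, with all 6 above 0. The striatal (median 0.02), subthalamic and mammillary (0.01), oligodendrocyte precursor (-0.07), microglial (-0.07) and endothelial (-0.08) lists had 0 calls. Of these 18 marker calls 6 (Th, Prkcd, Pmch, Ogn, Islr and Slc13a4) held in each of the 13 alternatives in which the gene was tested. Without RKO replicate 1, 11 held, and the calls of Rora, Ddc, Slc6a3, Dcn, Slc22a6, Aldh1l1 and Opalin were lost. Without RKO replicate 2, 11 held, and those of Ddc, Slc6a3, Slc18a2, Hcrt, Aldh1a2, Slc22a6 and Opalin were lost. Without WT replicate 1 those of Aldh1l1, Opalin and Slc6a3 were lost, and without WT replicate 2 that of Slc22a6. With no filter the 6 alone held, 13 held under median centring over tested genes (Hcrt, Aldh1a2, Slc22a6, Aldh1l1 and Opalin lost) and 15 after quantile normalization (Hcrt, Aldh1l1 and Opalin lost). No marker measured here had an intensity of 0 in any array. Their part in the differences of Slc17a7 and the other glutamate genes was not tested.

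**Figure D5:**
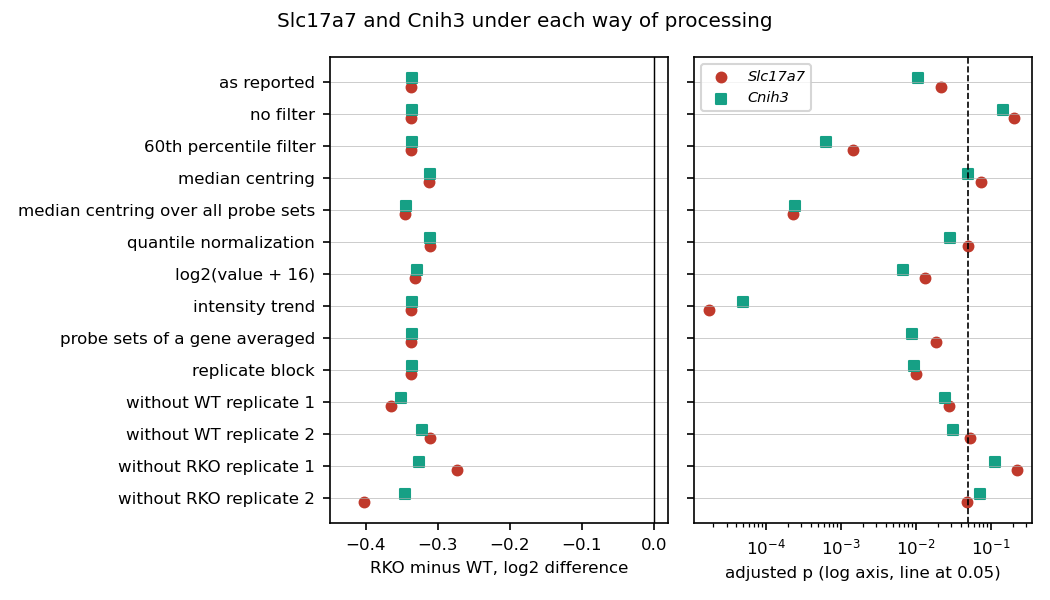
Log2 difference between RKO and WT (left) and limma adjusted p on a log axis (right, dashed line at 0.05) for Slc17a7 (circles) and Cnih3 (squares) under each way of processing (rows). The difference of Slc17a7 stays between -0.40 and -0.27, while its adjusted p lies above 0.05 in 5 of the 13 alternatives drawn, which leave out the crossed replicate block.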

How the data were processed

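Biotinylated cRNA of 4 ventral midbrain samples was hybridised to Affymetrix arrays. In the deposited table each of 35556 probe sets has 1 intensity in each array, normalized and not logged. GCOS and RMA are named, per the submitters' processing notes, without versions or settings. RMA as usually run equalises the arrays, so a shift shared by most genes would be removed. The number of arrays limits the precision.

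Intensities were transformed here to log2 without a pseudocount. Probe sets with 1 gene symbol in the platform annotation were used (21789, with 1621 having several and 12146 unnamed here). A gene needed a mean at or over the 40th percentile among probe sets to be tested. This kept 13587 genes and dropped 6351. The test was a 2-group model without covariates, with moderated variances (limma 3.58.1, R 4.3.3; 2 residual and 8.73 prior degrees of freedom). Adjusted p-values are two-sided Benjamini-Hochberg values over all tested genes, and standard errors (SE) are moderated. Scripts were tested on simulated data. The members and gene lists were chosen with earlier results of these data known. Named genes were all members, in each further glutamate list the called genes and up to 3 others of lowest p, and in marker lists the called genes and the gene of highest mean, of which not all are printed. Replicate numbers recur in both groups, but deviations from group means of same-numbered arrays correlated at r = -0.11 over genes, so the fit without the number is the one reported. Alternatives covered the filter, scaling, transform, variance prior, probe sets, replicate number and each array left out.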

Additional observations from a re-analysis of the deposited data

How the results depend on the processing

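The 34 genes' lean towards lower values kept its direction under every alternative run, with a median log2 difference between -0.07 and -0.03 and, when 1 array was left out, between -0.11 and -0.0573. Counts of calls did not: the single called gene of the list became 0 with no filter, under median centring over tested genes and after quantile normalization, 2 with the filter at the 60th percentile and under median centring over all probe sets, an alternative chosen after seeing the data, and 6 with an intensity trend in the variance prior (Camk2a, Grid1, Grin2b, Grm4, Shank3 and Slc17a7). Leaving out 1 array gave 0 to 1. Over all genes the 218 calls became 31 with no filter, 106 and 455 under the 2 centrings, 499 with the trend, and 73 to 293 with 1 array left out (73 without RKO replicate 1, 99 without RKO replicate 2). The other glutamate genes called lower became 0 with no filter, 3 at the 60th percentile, 2 under centring over all probe sets, 5 with the trend (and 2 higher) and 0 to 2 with 1 array left out. The replicate block gave 259 calls over all genes, 1 lower and 0 higher among the 34 and 1 lower among the other glutamate genes, and changed no call of a gene named here. The crossed replicate block, added after seeing the data because r was -0.11, gave 696 calls over all genes, 3 among the 34, and 4 lower and 1 higher among the other glutamate genes. The median log2 difference over all tested genes moved too, between -0.02 and 0.01 and, with 1 array left out, between -0.03 and 0.01. Every alternative reused the same 4 arrays and the same gene list, so an unchanged direction is not independent support. The causes of these shifts were not tested.

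Signs turned for genes near 0, none of them called under a setting that turned it. Under median centring over tested genes these were Grin2c (0.0039), Grin2d (0.0146), Grm3 (0.00791), Shank2 (0.0108) and Camk2b (0.00569). After quantile normalization they were Grin2c (0.00145), Grin2d (0.0111), Grm3 (0.000574), Shank2 (0.0119) and Slc17a8 (-4.71e-05). Under centring over all probe sets they were Gria4 (-0.00567), Grik4 (-0.00371) and Grm5 (-0.00682), and Shank2 (0.041) turned with its probe sets averaged. With 1 array left out the log2 difference took both signs for Barhl2 (-0.16 to 0.00267), Dlg4 (-0.12 to 0.00907), Gria2 (-0.13 to 0.00789), Gria3 (-0.00231 to 0.0677), Gria4 (-0.0195 to 0.025), Grik2 (-0.10 to 0.0232), Grik4 (-0.0222 to 0.0316), Grin2a (-0.12 to 0.0156), Grin2c (-0.0942 to 0.0525), Grin2d (-0.0587 to 0.0384), Grm3 (-0.0825 to 0.0488), Grm5 (-0.0646 to 0.0678), Grm8 (-0.14 to 0.0372), Homer3 (-0.16 to 0.0277), Pdgfra (-0.11 to 0.0348), Shank2 (-0.0651 to 0.0372) and Slc17a8 (-0.0222 to 0.0804).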
